A study of Mus musculus with 20 samples.

Results

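Bdnf, Fos, Egr1, Arc, Npas4, Nr4a1 and Junb are 7 genes that neurons switch on when they fire, and their DNA methylation was followed at every listed CpG inside the annotated mouse gene (mm10) or within 1 kb of either end. They were chosen by name, with earlier results of these data known, and all 7 were found. They are 7 of the 29141 gene regions that held a listed CpG, and they held 624 of the 1253074 CpGs listed at either age, 603 of them at 13 months and 624 at 3 months. The assay was reduced representation bisulfite sequencing. It samples fragments of an enzyme digest that are rich in CpGs, after bisulfite has turned unmethylated cytosines into uracil. The DNA came from mouse brain homogenate that had been put through an enrichment for microglia, the immune cells of the brain. HEM mice carried a transgene on X in which the murine Thy-1 promoter, known for its activity in neurons, drives human wild-type α-synuclein at full length, and WT mice were their controls. All groups had the B6D2F1/J background. At 13 months of age the groups held 8 HEM libraries and 4 of WT, and at 3 months they held 4 of each. For the younger WT group the submitters' design gives 3 mice, whereas 4 libraries bear this label and all were used. That design counts samples as mice, so each library was taken as 1 animal, and sex is not stated. Each deposited value is the percentage of methylated calls at a CpG, and the read depth behind it is unknown.

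The libraries of 1 age listed the same CpGs, and library means over all CpGs ran from 29.3% to 32.0% at 13 months and from 31.2% to 32.2% at 3 months. Methylation of a gene region is not a measure of its transcript, so the label of microglia enrichment could not be checked by expression. The 12 of 16 microglia marker regions with at least 3 CpGs averaged between 38.3% and 52.9% over the 20 libraries, with Cx3cr1, Itgam and P2ry12 at 83.2%, 80.6% and 67.7%. All 10 neuron marker regions were covered and averaged between 13.96% and 16.2%. In bulk DNA a shift in the mix of cells and a shift within a cell type cannot be told apart.

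When a neuron fires, calcium and growth factor signals act within minutes on transcription factors that are already bound at these genes, such as CREB and SRF, and transcription starts without new protein synthesis. Fos, Junb, Egr1, Npas4 and Nr4a1 encode transcription factors of this early wave, while Arc and Bdnf encode proteins that act at synapses. Most of these genes also respond to stimuli in other cells, microglia included. Their promoters lie in or near CpG islands, which are usually free of methylation whether or not the gene is transcribed, whereas CpGs inside gene bodies are often methylated.

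The sequences before the transcription start show which CpGs the assay could read. The 250 bases upstream of the RefSeq start (GRCm38.p6, the assembly of mm10) are given 5′ to 3′ for the windows with the most listed CpGs, namely Nr4a1 at chr15:101266596-101266845, a first Bdnf promoter at chr2:109692777-109693026 and a second Bdnf promoter at chr2:109694159-109694408, all on the + strand. For Bdnf, first and second give the order of the windows shown here and are not the numbers of its promoters. Capitals mark the CpGs with a deposited value.
Nr4a1: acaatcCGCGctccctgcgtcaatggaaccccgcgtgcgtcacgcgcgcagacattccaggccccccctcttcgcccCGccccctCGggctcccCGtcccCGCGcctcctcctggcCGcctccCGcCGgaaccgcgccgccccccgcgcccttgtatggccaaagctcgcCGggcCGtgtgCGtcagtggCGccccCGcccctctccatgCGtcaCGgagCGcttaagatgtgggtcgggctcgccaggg
Bdnf first: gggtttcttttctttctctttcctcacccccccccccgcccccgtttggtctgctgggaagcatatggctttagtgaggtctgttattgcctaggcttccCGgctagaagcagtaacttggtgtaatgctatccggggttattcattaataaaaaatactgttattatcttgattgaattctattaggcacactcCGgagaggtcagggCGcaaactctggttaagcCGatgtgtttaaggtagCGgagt
Bdnf second: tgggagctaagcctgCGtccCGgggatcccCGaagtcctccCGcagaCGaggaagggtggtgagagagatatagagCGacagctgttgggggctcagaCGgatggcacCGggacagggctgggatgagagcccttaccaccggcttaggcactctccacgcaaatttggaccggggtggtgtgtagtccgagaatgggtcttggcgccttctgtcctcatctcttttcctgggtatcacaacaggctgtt
In Nr4a1 18 of the 34 CpGs were listed, in the first Bdnf promoter 5 of 8, and in the second Bdnf promoter 8 of 13. Fos, Npas4 and Junb are shown because the core of the CREB element, TGACG, occurs in them outside the listed CpGs. They are Fos at chr12:85473640-85473889 on the + strand, Npas4 at chr19:4989972-4990221 on the - strand and Junb at chr8:84978749-84978998 on the - strand, and here capitals mark TGACG or, where it lies on the other strand, CGTCA.
Fos: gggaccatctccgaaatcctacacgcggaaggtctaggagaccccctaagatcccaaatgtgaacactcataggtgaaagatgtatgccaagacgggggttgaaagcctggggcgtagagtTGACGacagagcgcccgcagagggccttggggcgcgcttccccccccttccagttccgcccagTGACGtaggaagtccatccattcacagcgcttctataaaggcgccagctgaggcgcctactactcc
Npas4: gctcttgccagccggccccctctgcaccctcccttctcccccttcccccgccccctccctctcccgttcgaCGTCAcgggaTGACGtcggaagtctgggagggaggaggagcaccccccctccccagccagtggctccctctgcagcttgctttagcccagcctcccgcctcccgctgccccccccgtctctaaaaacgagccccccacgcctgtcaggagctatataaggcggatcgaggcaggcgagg
Junb: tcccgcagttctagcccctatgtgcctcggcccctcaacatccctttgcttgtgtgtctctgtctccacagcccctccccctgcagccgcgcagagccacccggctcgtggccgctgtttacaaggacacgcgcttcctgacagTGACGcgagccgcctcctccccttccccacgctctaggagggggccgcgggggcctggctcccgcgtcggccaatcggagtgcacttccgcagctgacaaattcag
No CpG was listed in these 250 bases of Fos and Npas4, and 3 of 20 were listed in Junb. RefSeq windows were held for 5 of the 7 genes, 7 of them for Bdnf. The Bdnf windows that are not shown held no listed CpG. The whole windows run from 250 bases before to 50 after a start. TGACG, which is also part of the full element TGACGTCA, was searched on both strands and found 10 times in the 11 windows, 4 times in Nr4a1, 2 times each in Fos and Npas4, and 1 time each in Junb and in 1 Bdnf window. At least 1 TGACG was held by 20.8% of all 32817 RefSeq windows of this length. TGACGTCA and the CArG box, which SRF binds, had no match in the 11 windows, and they were held by 1.79% and 1.63% of all windows. Only 2 of the 10 matches had a listed CpG inside, both in Nr4a1, at positions -69 and -40 from the start, and all 4 group means there were at or below 0.218%. These matches describe letters and say nothing of binding.

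In the promoter windows shown, the listed CpGs of Nr4a1 and of the second Bdnf promoter were nearly free of methylation, while those of the first Bdnf promoter averaged above 5% in all 4 groups. The 18 in the Nr4a1 window averaged 0.0879% ± 0.0462 in HEM against 0.147% ± 0.132 in WT at 13 months (SD, n = 8 and 4), and 0.122% ± 0.0737 in HEM against 0.133% ± 0.0518 in WT at 3 months (SD, n = 4 each). The 5 in the first Bdnf window averaged 8.23% ± 2.35 in HEM against 7.37% ± 2.30 in WT at 13 months, and 5.46% ± 1.78 in HEM against 7.07% ± 2.31 in WT at 3 months. The 9 listed positions in the second Bdnf window averaged 1.81% ± 1.005 in HEM against 1.25% ± 0.118 in WT at 13 months, and 0.569% ± 0.383 in HEM against 1.03% ± 0.164 in WT at 3 months. In the first Bdnf window the libraries of HEM (4.90% to 11.5% at 13 months, 3.49% to 7.37% at 3 months) overlapped those of WT (4.72% to 9.504% and 4.03% to 9.46%). For scale, the median of all 10608 RefSeq windows with at least 3 listed CpGs was 0.173%, and 91.6% of them were below 5%.

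Averaged over its CpGs, each gene kept a level of its own over the 20 libraries. Npas4 was the most methylated, at 36.3% ± 2.92 (SD, n = 20), followed by Nr4a1 at 29.1% ± 0.654, Fos at 13.3% ± 0.964, Arc at 9.36% ± 1.17 and Bdnf at 5.48% ± 0.712. Junb at 0.290% ± 0.0741 and Egr1 at 0.248% ± 0.120 were almost unmethylated. Within a library each gene was above the next in all 20 libraries, except that Junb was above Egr1 in 12 of 20, so these neighbours did not differ beyond their spread. The median of all 25723 gene regions was 25.7%, with 24.1% of them below 5%. Only Npas4 and Nr4a1 were above that median. The listed CpGs cover unlike parts of the genes, with 0 of those of Npas4 and 44 of the 51 of Egr1 in a flank. This order is therefore that of the listed CpGs and not of whole genes.

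**Figure D1:**
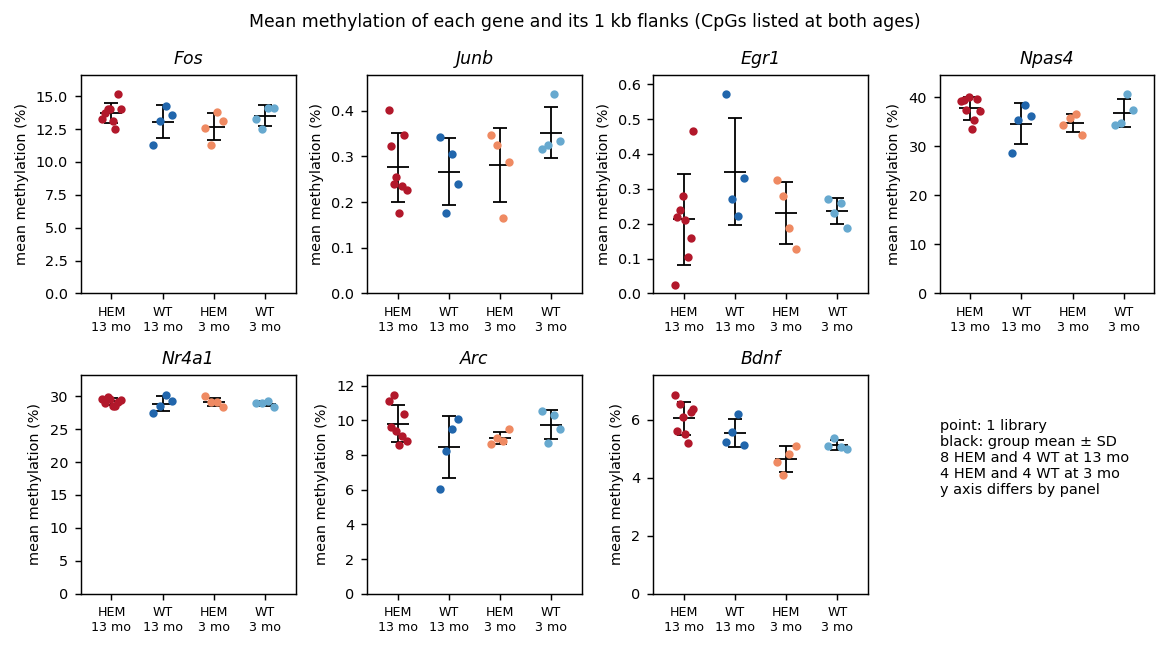
Mean methylation in percent of each gene with its 1 kb flanks, over the CpGs listed at both ages, with 1 point for each library and black bars for the group mean ± SD (8 HEM and 4 WT at 13 months, 4 HEM and 4 WT at 3 months). Each panel has its own axis from 0, and in every gene the HEM points overlap the WT points of the same age.

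The mean of a gene hid a split between unmethylated and methylated CpGs. All 126 CpGs of Junb and all 51 of Egr1 were below 5% on average, as were 137 of 158 in Bdnf, 56 of 67 in Fos, 79 of 125 in Nr4a1 and 22 of 37 in Arc. In Npas4 only 7 of 39 were below 5%, and 29 lay between 5% and 80%. Nr4a1 held the most CpGs above 80%, 30 of 125, followed by Fos with 6, Bdnf with 4 and Npas4 with 3. Of all 1132579 CpGs listed at both ages 56.0% were below 5%, 21.3% between and 22.7% above 80%. The intermediate share of Npas4, 74.4%, was therefore the one farthest from that of all CpGs.

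**Figure D2:**
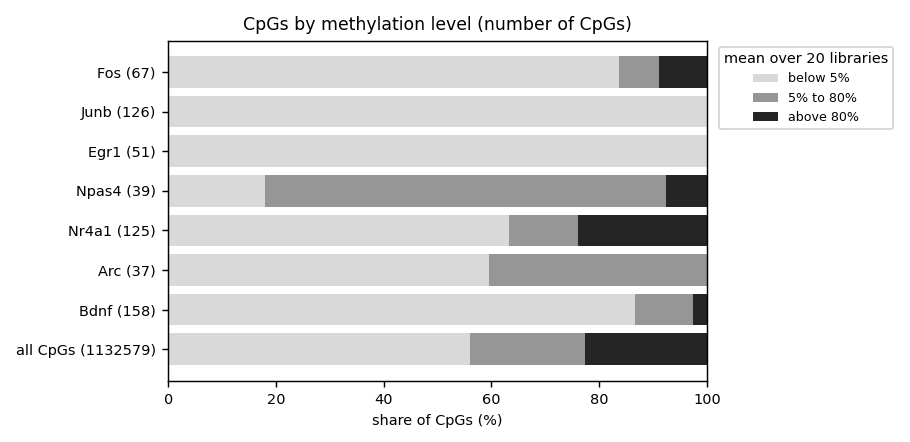
Share of CpGs, in percent, with a mean over 20 libraries below 5% (light), from 5% to 80% (grey) and above 80% (black), for each gene and for all CpGs, with the number of CpGs in brackets. Egr1 and Junb are light throughout, and Npas4 has the widest grey part.

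Fos encodes a subunit of the AP-1 factor and is the standard marker of recently active neurons. Its gene lies at chr12:85473890-85477274, and 52 of its 67 CpGs were in the gene and 15 in a flank. CpGs less than 300 bp apart were joined into stretches, which gave 4 in Fos. From position -473 to position 939, counted in bp from the start, 3 stretches with 56 CpGs had group means of 0.0512% to 0.250%. The last stretch, 11 CpGs at 85476139 to 85476483, which is 2249 to 2593 bp inside the gene, was at 82.8% ± 4.45 in HEM against 78.6% ± 7.92 in WT at 13 months (SD, n = 8 and 4), and at 76.7% ± 6.25 in HEM against 81.3% ± 5.54 in WT at 3 months (SD, n = 4 each). Fos thus had an unmethylated start and a methylated distal part in all 4 groups. A CpG at 85476201 in this stretch had the widest range of the gene, from 32.4% to 94.1% in the 13-month libraries and from 30.8% to 93.3% at 3 months.

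Junb, a partner of Fos in AP-1, and Egr1, a zinc finger factor induced with it, were unmethylated along their covered length. Junb lies at chr8:84976909-84978748 and had 138 CpGs, and the 126 of them listed at both ages formed 3 stretches, whose group means ran from 0.105% to 0.949%. Egr1 lies at chr18:34861207-34864956, with 44 of its 51 CpGs in a flank and 7 in the gene. The 44 in the flank averaged 0.183% in HEM against 0.312% in WT at 13 months and 0.235% in HEM against 0.192% in WT at 3 months. The widest range of a single CpG over the libraries of an age was 11.1 points in Egr1 and 10.3 points in Junb, so no CpG of either gene approached the methylated class.

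Npas4, a factor that responds to calcium and is described as selective for neurons, had the most graded profile. Its annotation spans chr19:4984353-5003439 and reaches well upstream of the RefSeq start at 4989971, which is read on the - strand. From 147 to 1107 bp inside the gene 18 CpGs averaged 36.8% ± 3.42 in HEM against 30.6% ± 7.36 in WT at 13 months, and 30.5% ± 3.32 in HEM against 33.9% ± 5.21 in WT at 3 months. Neighbours in this stretch differed widely, from 8.70% at 4989824 to 76.2% at 4989607 in HEM at 13 months. Further inside, 9 CpGs at 4988114 to 4988307 stood at 62.9% in HEM against 62.2% in WT at 13 months, and at 62.0% in HEM against 65.4% in WT at 3 months. Far upstream, 8 CpGs at 5001730 to 5001931 were low, with group means of 1.98% to 3.31%, while 4 at 5002525 to 5002608 were between 53.3% and 57.7%.

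Nr4a1, an orphan nuclear receptor that needs no known hormone to act, alternated between the extremes. Its annotation spans chr15:101253902-101274795, and 42 CpGs at its far end, 101253920 to 101254424, had group means of 0.395% to 0.540%. Another 30 CpGs from position -288 to position 100 around the RefSeq start at 101266846 were at 0.120% to 0.152%. Between these islands the few listed CpGs were methylated, except for 3 at 101261396 to 101261562 with group means from 30.4% to 34.9%. Downstream, 24 CpGs at 101269832 to 101270429 averaged 86.4% ± 1.86 in HEM against 84.8% ± 4.68 in WT at 13 months and 87.1% ± 1.27 in HEM against 86.2% ± 0.644 in WT at 3 months. A last 9 at 101272759 to 101273025 were at 87.6% to 89.0%.

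**Figure D3:**
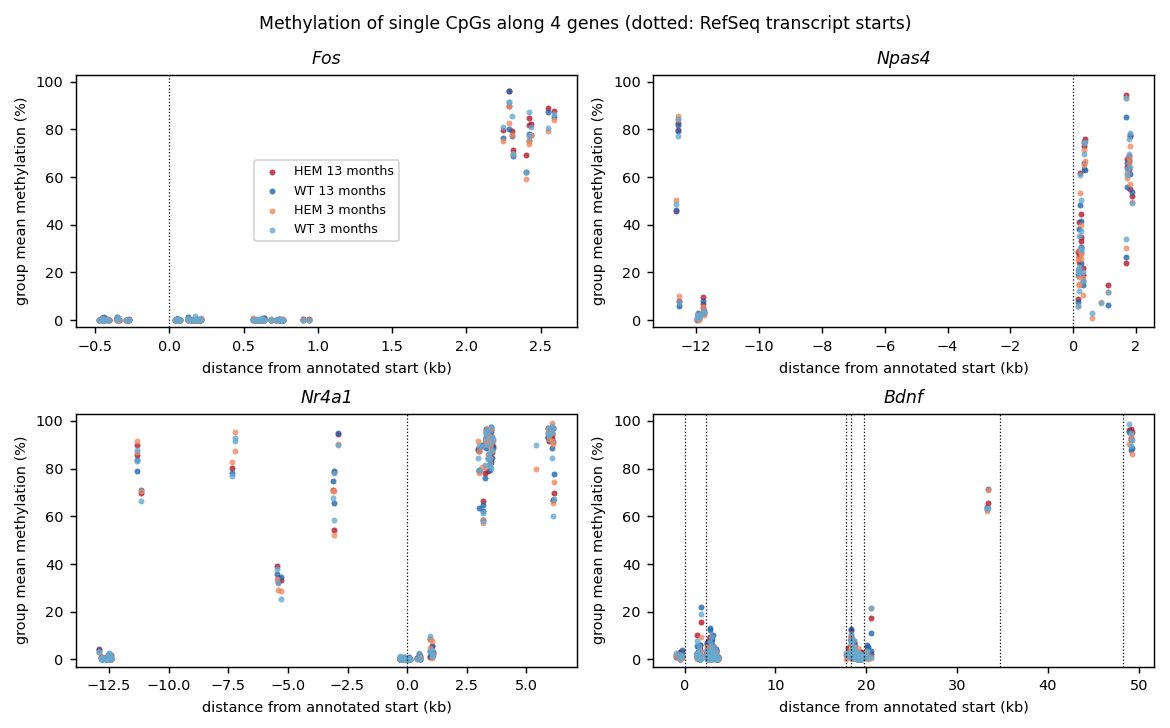
Group mean methylation in percent of single CpGs against their distance in kb from the annotated start, for Fos, Npas4, Nr4a1 and Bdnf, with dotted lines at RefSeq starts. The CpGs of the Fos start lie at or near 0 and its distal CpGs average 76.7% to 82.8%, and the 4 groups follow the same profile along each gene.

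Arc encodes a cytoskeletal protein whose RNA moves into dendrites and which drives the removal of AMPA receptors from synapses. It lies at chr15:74669081-74672570, and its 2 flank CpGs also fall in the noncoding RNA gene Gm32994. In the gene 32 CpGs at 74671944 to 74672429 were low, at 4.53% ± 0.937 in HEM against 4.02% ± 1.18 in WT at 13 months and 4.32% ± 0.421 in HEM against 4.55% ± 0.857 in WT at 3 months. The other 3, at 74670665 to 74670734, were at 71.5% ± 7.71 in HEM against 59.9% ± 10.3 in WT at 13 months, and at 63.6% ± 5.81 in HEM against 70.4% ± 2.46 in WT at 3 months. These 3 CpGs ran from 59.1% to 80.8% over the HEM libraries and from 49.3% to 70.2% over the WT libraries of 13 months, so the groups overlapped.

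Bdnf, the neurotrophin that signals through TrkB, has many promoters, each with its own first exon, spread along chr2:109674700-109727043. Its 158 CpGs listed at both ages fell into 9 stretches. The 7 stretches of the 5′ part, which hold most of them, had group means from 0.814% to 5.02%. By contrast 2 CpGs at 109708029 to 109708058 were at 63.5% to 67.2%, and 4 at 109723685 to 109723921, 764 to 1000 bp after the last RefSeq start, were at 95.3% ± 1.51 in HEM against 90.9% ± 2.77 in WT at 13 months, and 90.8% ± 4.82 in HEM against 93.8% ± 0.302 in WT at 3 months. The CpG at 109676459 was the most variable of the gene, from 2.27% to 34.6% over the libraries of 13 months and from 0% to 54.5% over those of 3 months.

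**Figure D4:**
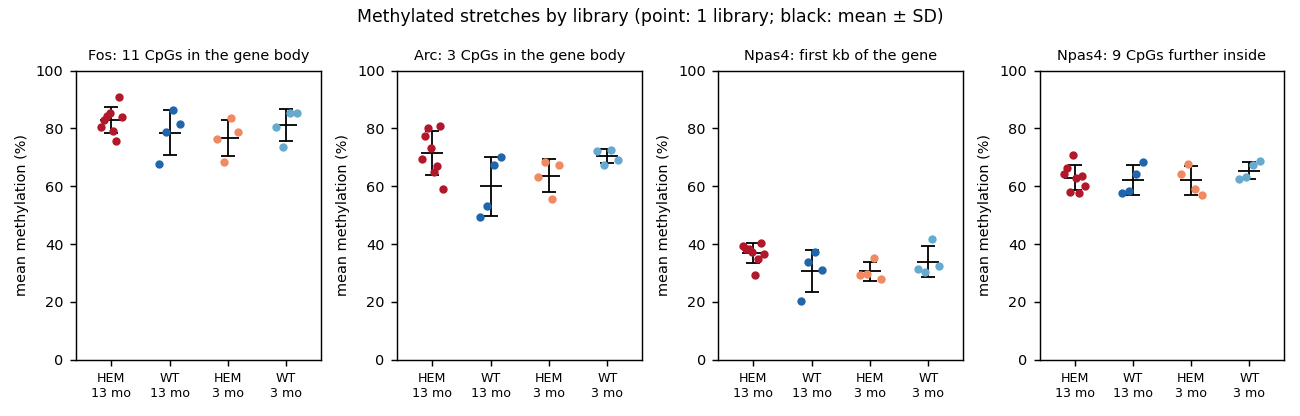
Mean methylation in percent of 4 methylated stretches in each library (points), with the group mean ± SD in black, for the distal 11 CpGs of Fos, the 3 body CpGs of Arc and 2 stretches of Npas4. WT replicate 1 at 13 months is the lowest point of its group in Fos at 67.6%, in Arc at 49.3% and in the stretch after the Npas4 start at 20.3%.

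The first comparison asked whether α-synuclein overexpression went with other methylation of these genes at 13 months, and no gene passed the test. Mean percentages were compared with limma on log2((percent + 1) / (100 - percent + 1)), with Benjamini-Hochberg adjustment over all 25826 gene regions of at least 3 CpGs, and a call needed an adjusted p under 0.05 and 5 percentage points. Of all regions 0 were called (0%), and of the 7 genes 0, while an unadjusted p under 0.05 was found for 0 of the 7 and for 4.41% of all regions. The mean was higher in HEM in 6 of 7 genes, beside 49.3% of all regions, with a median difference of 0.51 points for the 7 and -0.01 points for all.

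Npas4 had the largest difference of the 7. In HEM it ran from 33.6% to 40.004% with a median of 38.4%, and the WT libraries were at 28.7%, 35.3%, 38.4% and 36.1%. WT replicate 1 was below every HEM library, and the other 3 lay within the HEM range. The difference was 3.10 points, with a 95% interval of -0.77 to 6.97 (limma adjusted p = 0.998), and it was 1.12 points without WT replicate 1.

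Arc and Fos had the same library at the bottom. Arc ran from 8.59% to 11.5% in HEM with a median of 9.51%, and stood at 6.04%, 8.25%, 9.52% and 10.1% in WT. The difference was 1.34 points, with a 95% interval of -0.39 to 3.06 (limma adjusted p = 0.998), and 0.52 points without WT replicate 1. Fos ran from 12.5% to 15.1% in HEM with a median of 13.9%, and stood at 11.3%, 13.1%, 14.2% and 13.5% in WT, a difference of 0.68 points with a 95% interval of -0.58 to 1.93. Without WT replicate 1 the Fos difference was 0.09 points and without WT replicate 6 it was 1.07 points, and Nr4a1, at 29.2% ± 0.507 in HEM against 28.9% ± 1.16 in WT, was at -0.11 points without replicate 1 and at 0.35 points with it. WT replicate 1 also had the lowest neuron marker mean of all 20, 13.96%, and with 51.8% a microglia marker mean near the top of their range. Its oligodendrocyte marker mean, 39.5%, was the lowest of all 20 too. Its vessel and leukocyte marker means, 60.2% and 60.6%, were near the top of their ranges, which ended at 61.8% and 61.5%. Its astrocyte marker mean, 37.1%, lay inside the range of 33.8% to 39.5%. With the microglia marker mean as a covariate the differences at 13 months were 2.55 points in Npas4, 1.03 in Arc, 0.30 in Fos, 0.33 in Bdnf and 0.09 in Nr4a1, and no gene was called. The part of the markers other than microglia in the result was not tested.

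The other 3 genes differed by less than a point, as Fos and Nr4a1 did. Bdnf ran from 5.19% to 6.86% in HEM with a median of 6.18%, and stood at 5.24%, 5.59%, 6.21% and 5.13% in WT, a difference of 0.51 points with a 95% interval of -0.22 to 1.24. Junb averaged 0.276% in HEM against 0.266% in WT, and Egr1 0.213% in HEM against 0.349% in WT, with 95% intervals of -0.21 to 0.23 and -0.40 to 0.13 points. For these 3 genes, as for Arc, Fos and Nr4a1, the intervals left out any mean shift of 5 points, while that of Npas4 did not.

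At single CpGs no member was called at 13 months. Of 453891 CpGs with a mean of 5% to 95% over these libraries 4 were called (0.000881%) at an adjusted p under 0.05 and 10 points, none of them among the 123 CpGs of the 7 genes that entered this test, and Egr1 and Junb had no CpG in that range. An unadjusted p under 0.05 was found in 2 of 40 CpGs of Nr4a1, 2 of 33 of Npas4, 2 of 25 of Bdnf, 1 of 15 of Arc and 0 of 10 of Fos, beside 5.82% of all. All 10 Fos CpGs were higher in HEM, by 1.49 to 9.52 points, but they lie within 1 stretch and share their libraries.

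The CpG of Arc with the smallest p, at 74672245, ran from 5.68% to 11.5% in HEM with a median of 7.66%, and stood at 3.26%, 2.22%, 4.17% and 0% in WT. The groups did not overlap at 13 months, which the choice of this CpG by its p favours. How many of all CpGs had groups without overlap was not counted. The difference was 5.79 points with a 95% interval of 0.93 to 10.6 (limma adjusted p = 0.638). At 3 months the same CpG stood at 3.81%, 6.74%, 5.66% and 1.96% in HEM, against 2.67%, 2.94%, 7.41% and 10.6% in WT, so the groups overlapped there. The Nr4a1 CpG at 101269855 ran from 67.3% to 92.5% in HEM with a median of 80.2%, and stood at 54.1%, 69.8%, 61.3% and 68.3% in WT, so the groups overlapped. Its difference of 15.6 points was the largest of the named CpGs, with a 95% interval of 5.42 to 25.7 (limma adjusted p = 0.825). In Bdnf the smallest p was that of 109723921, at 95.5% in HEM against 88.5% in WT (limma adjusted p = 0.812), and its difference of 6.94 points was 3.82 points without WT replicate 2, which stood at 79.2%. In Fos it was that of 85476174, at 89.6% in HEM against 80.1% in WT (limma adjusted p = 0.864). In Npas4 it was that of 4988864, at 14.5% in HEM against 6.21% in WT (limma adjusted p = 0.837).

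At 3 months the same test called none of the 7 genes either, and 0 of 26426 regions in all (0%). An unadjusted p under 0.05 was found for 0 of the 7 and for 4.28% of all regions. The mean was higher in HEM in 1 of 7 genes, Nr4a1, beside 45.8% of all regions. Npas4 stood at 32.7%, 34.2%, 35.0% and 31.1% in HEM, against 32.9%, 33.5%, 38.8% and 35.7% in WT, a difference of -1.96 points with a 95% interval of -5.53 to 1.62 (limma adjusted p = 0.9999). The groups overlapped, and WT replicate 4 was the highest. The difference was -0.75 points without that library and -1.23 points without HEM replicate 7.

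Arc stood at 8.66%, 8.97%, 8.84% and 9.47% in HEM, against 10.5%, 8.69%, 10.3% and 9.48% in WT at 3 months, a difference of -0.76 points with a 95% interval of -1.80 to 0.28. Fos stood at 12.6%, 11.3%, 13.8% and 13.1% in HEM, against 13.3%, 12.5%, 14.1% and 14.1% in WT, a difference of -0.82 points with a 95% interval of -2.30 to 0.66. Bdnf stood at 4.44%, 3.98%, 4.69% and 5.03% in HEM, against 4.99%, 5.25%, 5.0003% and 4.85% in WT, a difference of -0.49 points with a 95% interval of -1.08 to 0.11. In each of these 3 genes 1 or more HEM libraries lay within the WT range. Without HEM replicate 2, the lowest library in Fos and Bdnf, the differences were -0.35 points in Fos and -0.30 points in Bdnf, and without WT replicate 1 that of Arc was -0.50 points. Nr4a1, Junb and Egr1 differed by 0.19, -0.07 and -0.01 points.

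Of 492283 CpGs tested at 3 months 0 were called (0%), and none of the 117 in these genes. An unadjusted p under 0.05 was found in 2 of 16 CpGs of Bdnf, 1 of 11 of Fos, 1 of 44 of Nr4a1, 0 of 14 of Arc and 0 of 32 of Npas4, beside 4.53% of all. The Fos CpG of smallest p, at 85476310, stood at 76.6%, 69.1%, 76.7% and 80% in HEM, against 84.5%, 85.4%, 89.7% and 89.7% in WT. The groups did not overlap, which the choice of this CpG by its p favours. The share of all CpGs tested at 3 months whose groups did not overlap was not counted. The difference was -11.7 points with a 95% interval of -19.8 to -3.66 (limma adjusted p = 0.985). At 13 months the same CpG ran from 69.9% to 92.6% in HEM and from 57.4% to 88.4% in WT. Among the other genes, the CpG of smallest p in Bdnf was 109723685, at 90.4% in HEM against 98.8% in WT. In Nr4a1 the CpG at 101270299 stood at 93.8% in HEM against 84.5% in WT. The CpG at 4989665 in Npas4 stood at 10.5% in HEM against 16.3% in WT, and the one at 74672129 in Arc at 7.56% in HEM against 3.96% in WT. Each of these 5 CpGs had a limma adjusted p of 0.985.

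**Figure D5:**
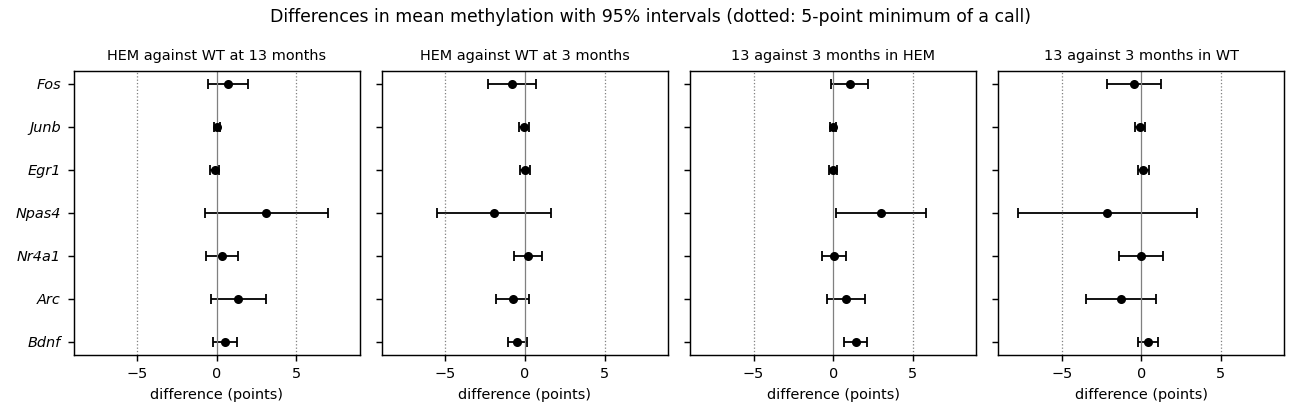
Differences in mean methylation in percentage points for each gene, with 95% intervals from limma on the percent scale, for HEM minus WT at 13 and 3 months and for 13 minus 3 months in HEM and WT. Dotted lines mark the 5 points a call needed, and the intervals that leave out 0 are those of Bdnf and Npas4 in HEM between ages.

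Between ages, Bdnf and Npas4 had the largest differences in HEM, without passing the test. The libraries of an age were also deposited as a set, so age and any batch that goes with it cannot be told apart, and the age comparisons share their libraries with the genotype comparisons above. CpGs listed at both ages were used, and 25719 regions were tested in HEM. Of these 0 were called (0%), and 0 of the 7, with an unadjusted p under 0.05 for 2 of the 7 and for 13.6% of all regions. Bdnf in HEM ran from 5.19% to 6.86% at 13 months with a median of 6.18%, and stood at 4.55%, 4.08%, 4.81% and 5.11% at 3 months. The ages did not overlap, though the share of all regions without overlap between ages was not counted. The difference was 1.42 points with a 95% interval of 0.70 to 2.13 (limma adjusted p = 0.130), under the 5 points of a call. Leaving out each library in turn gave 1.23 to 1.57 points with limma adjusted p of 0.067 to 0.36.

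The sparsely methylated 5′ stretches of Bdnf, which hold most of its CpGs, were higher at 13 months in HEM. So were the methylated CpGs at 109723685 to 109723921, at 95.3% ± 1.51 in HEM at 13 months and 90.8% ± 4.82 at 3 months. Those at 109708029 to 109708058 were not, at 64.7% and 66.6%. The difference was thus not particular to the 5′ part. The 19 CpGs at 109676029 to 109676459 averaged 3.79% in HEM at 13 months, with libraries from 2.37% to 5.82%, and 1.51% ± 0.272 in HEM at 3 months, and the 50 at 109677128 to 109678387 averaged 3.17% ± 0.860 and 1.43% ± 0.350 at these ages. In WT the same stretches were at 3.18% ± 0.413 and 2.83% ± 1.12 at 13 months, and at 2.88% ± 1.74 and 1.63% ± 0.253 at 3 months. The microglia marker mean in HEM was 44.3% ± 4.67 at 13 months and 48.9% ± 3.63 at 3 months, and with that mean as a covariate the Bdnf difference was 1.11 points (limma adjusted p = 0.475). The neuron marker mean in HEM was 15.6% ± 0.625 at 13 months and 14.6% ± 0.150 at 3 months, a difference in the same direction as that of Bdnf, and the ranges of 14.71% to 16.2% and 14.4% to 14.76% overlapped. The mean of 6 leukocyte marker regions was 55.2% ± 2.96 at 13 months and 58.2% ± 2.87 at 3 months. Higher at 13 months in HEM were also the astrocyte, oligodendrocyte and vessel marker means (37.5%, 41.6% and 56.6%, against 36.3%, 40.7% and 55.0%). Their ranges overlapped as well. It was the direction of 63.9% of all regions too. The part of the markers other than microglia in the result was not tested.

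Npas4 in HEM ran from 33.6% to 40.004% at 13 months with a median of 38.4%, and stood at 34.3%, 35.8%, 36.5% and 32.3% at 3 months. The ages overlapped, and the difference was 3.00 points with a 95% interval of 0.18 to 5.81 (limma adjusted p = 0.348). Fos differed by 1.04 points and Arc by 0.82 points in HEM, and the intervals of both covered 0. Without HEM replicate 2 of 3 months the Fos difference was 0.57 points, and with the microglia covariate it was 0.43 points. Nr4a1, Junb and Egr1 differed by 0.06 points or less in size.

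In WT 1 of 25712 regions was called between ages (0.00389%), none of the 7, with an unadjusted p under 0.05 for 0 of the 7 and for 5.13% of all. Bdnf averaged 5.54% ± 0.485 at 13 months and 5.12% ± 0.170 at 3 months in WT, a difference of 0.42 points with a 95% interval of -0.22 to 1.07 (limma adjusted p = 0.927), and of 0.20 points without WT replicate 6 of 13 months. Npas4 averaged 34.6% ± 4.16 and 36.8% ± 2.87 at these ages, a difference of -2.13 points with a 95% interval of -7.75 to 3.49, which was -0.15 points without WT replicate 1 of 13 months, -3.37 points without replicate 6 of that age and -0.86 points without WT replicate 4 of 3 months. Arc, at -1.27 points, was at -0.46 points without WT replicate 1 of 13 months. At single CpGs 136 of 445659 were called between ages in HEM (0.0305%) and 81 of 442157 in WT (0.0183%), and in these genes none of 122 in HEM and none of 119 in WT. In HEM an unadjusted p under 0.05 was found in 9 of 22 CpGs of Bdnf, 2 of 11 of Fos, 2 of 33 of Npas4, 2 of 41 of Nr4a1 and 1 of 15 of Arc, beside 10.4% of all CpGs. In WT it was found in 1 of 22 of Bdnf, 1 of 11 of Fos, 1 of 32 of Npas4, 2 of 41 of Nr4a1 and 0 of 13 of Arc, beside 4.79%.

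Whether the genotype difference itself differed between ages was tested as an interaction over all 20 libraries. Of 25723 regions 0 passed (0%) an adjusted p under 0.05, and 0 of the 7, with an unadjusted p under 0.05 for 1 of the 7, Bdnf, and for 5.39% of all. In Npas4 the difference between HEM and WT at 13 months exceeded that at 3 months by 5.13 points, with a 95% interval of -0.22 to 10.5. In Arc the excess was 2.09 points, with a 95% interval of -0.07 to 4.26, and in Fos it was 1.497 points, with an interval of -0.34 to 3.33. Bdnf had an excess of 0.99 points, with a 95% interval of 0.05 to 1.94, and for these 4 genes the adjusted p by limma was 0.890. With WT replicate 1 of 13 months left out the Npas4, Arc and Fos values were 3.15, 1.28 and 0.91 points. Of 446428 CpGs 1 passed (0.000224%), none of the 118 in these genes. An unadjusted p under 0.05 was found in 3 of 32 CpGs of Npas4, 2 of 20 of Bdnf, 2 of 40 of Nr4a1, 1 of 15 of Arc and 1 of 11 of Fos, beside 6.28% of all.

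The rest of the activity-regulated programme was equally without a call. Of 36 other genes induced by activity, such as Fosb, Egr2, Nr4a2, Homer1 and Vgf, all had at least 3 CpGs and 0 were called in any of the 5 comparisons. Their median level over the 20 libraries was 2.72%, and 26 of 36 were below 5%. At 13 months 20 of 36 were higher in HEM, beside 49.3% of all regions, with a median difference of 0.06 points. At 3 months 18 of 36 were higher, beside 45.8% of all regions, with -0.02 points. An unadjusted p under 0.05 was found for 0 of 36 at 13 months, beside 4.41% of all regions. At 3 months it was found for 3 of 36, beside 4.28%. Of smallest p were Gadd45b, a stress protein linked to DNA demethylation, at 2.05% in HEM against 2.81% in WT, and Ier2 at 0.241% in HEM against 0.344% in WT, at 13 months (limma adjusted p = 0.998), and Fosl1 at 2.71% in HEM against 3.25% in WT and Ier5 at 0.0633% in HEM against 0.163% in WT at 3 months (limma adjusted p = 0.9999). Between ages in HEM 11 of the 36 had an unadjusted p under 0.05, beside the 13.6% of all regions, and 27 were higher at 13 months, which was the direction of 63.9% of all regions. The list's smallest adjusted p there was 0.181 with limma.

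Genes upstream of the programme stood at a median of 20.2%. Of 27 such kinases, receptors and chromatin factors 26 could be tested, Elk1 having too few CpGs, and 0 were called in any of the 5 comparisons. None of the 26 had an unadjusted p under 0.05 at either age between HEM and WT or between ages in either genotype. Of all regions 4.41% had one between HEM and WT at 13 months and 4.28% at 3 months. Between ages it was 13.6% of all regions in HEM and 5.13% in WT. The smallest p at 13 months were those of Crtc1, a coactivator of CREB, at 54.7% in HEM against 52.9% in WT, and of the kinase gene Rps6ka5 at 30.1% in HEM against 27.8% in WT (limma adjusted p = 0.998). At 3 months the smallest p was that of Srf, at 2.16% in HEM against 2.60% in WT (limma adjusted p = 0.9999).

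To see which regions varied alongside each gene, mean percentages were centred within the 4 groups and correlated over the 20 libraries. The 2 regions with the highest Pearson r were Rnf217 and Nfib for Bdnf (0.934 and 0.915), Gm51419 and Ttyh1 for Fos (0.939 and 0.920), Ptov1 and 2700003A03Rik for Arc (0.904 and 0.899), and Gm35730 and Gm41183 for Npas4 (0.898 and 0.897). They were Chadl and Gm51687 for Nr4a1 (0.850 and 0.849), Gm9917 and Mzt1 for Egr1 (0.814 and 0.795), and Gm18754 and Gna11 for Junb (0.805 and 0.792). Each pair was the highest of 25723 regions, which share libraries and cell mix, so these values are descriptions. No gene among the 7 was in another's pair.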

How the data were processed

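Each of the 20 deposited files lists, per the labels and the values, a CpG's position and its percent methylation with no read counts, so depth is unknown. Per the submitters' processing notes Bowtie2, methylKit and mm10 were used, with no versions given. A table for each age, with 21 value columns in all and no header, was not used.

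Gene bounds came from RefSeq (GRCm38.p6), and all 125 gene symbols of the lists matched. Where both strands of a CpG were listed, 1 base apart, each was counted. A region's value is the mean over its CpGs. The log2 ratios described above were computed from the deposited percentages and fitted with limma 3.58.1 in R 4.3.3, each pair of groups alone and the interaction over all 20 libraries. Regions needed 3 CpGs. CpGs on chromosomes 1 to 19, X and Y were tested. Intervals came from the same model on the percent scale. The fit was also run on simulated data with planted shifts larger than any gene difference reported here, at features of intermediate mean. That run does not show whether differences of the size seen here would be found.

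Named were all 7 genes, per gene the CpG of smallest p in each genotype comparison and that of widest range at each age, per list the 2 genes of smallest p (1 of them is not reported here), and per gene the 2 regions most like it. The genes and lists were chosen with earlier results of these data known.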

Additional observations from a re-analysis of the deposited data

Results flagged for a closer look

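Among the 28 combinations of gene and group, 1 held a library set far apart from the others of its group by Dixon's test at 95%, where chance gives about 1 in 20. In WT at 3 months Junb averaged 0.4748% in replicate 4, against 0.3037% in the next library and 0.2933% in the lowest, over 138 CpGs that were nearly unmethylated throughout. Over the 126 of these CpGs that were also listed at 13 months it averaged 0.436%.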

How the results depend on the processing

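No gene among the 7 and none of their CpGs was called under any alternative that was run, and the 10 named CpG differences kept their direction in all 69 recomputations besides those that left out a library. These 10 CpGs were picked by their p in the same libraries, so a kept direction is no independent support. Of 332 gene differences 14 changed sign, none of them called, and the cause was not tested. With 5 kb flanks these were Egr1 between ages in HEM (0.00788 points), Junb between genotypes at 13 and 3 months (-0.13 and 0.0629) and its interaction (-0.0878). Without flanks they were Egr1 between ages in HEM (0.20) and its interaction (0.14), and Junb at 13 months (-0.0240) and its interaction (-0.0113). With the microglia markers as a covariate they were Junb between ages in HEM (0.0206) and the Nr4a1 interaction (-0.11). The replicate block fits kept only libraries whose number both groups share (6 of 12 at 13 months, 4 of 8 at 3 months, 6 of 12 between ages in HEM, 10 of 20 in the interaction), so the block and the fewer libraries cannot be told apart. In them the sign differed for Npas4, Fos and Egr1 at 3 months (0.69, 0.30 and 0.00527) and Junb between ages in HEM (0.0613).

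No same-numbered pair of libraries correlated above the highest of the other pairs, though so few pairs cannot exclude a pairing. Same-numbered HEM and WT libraries of 13 months correlated at 0.103, 0.224 and 0.048, within the -0.310 to 0.279 of other pairs, those of 3 months at 0.051 and -0.111, and HEM libraries of both ages at 0.027, -0.152 and -0.015. In these smaller replicate block fits 0 CpGs were called at 13 months, 0 between ages in HEM and 0 in the interaction. No paired analysis was possible between ages in WT because these groups share only 1 number.

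Leaving out each library in turn, differences in points crossed 0 for Nr4a1 in the 5 comparisons (-0.11 to 0.80 at 13 months, -0.11 to 0.42 at 3 months, -0.19 to 0.35 between ages in HEM, -0.46 to 0.45 in WT, -0.39 to 0.52 in the interaction), Junb (-0.0202 to 0.0353 at 13 months, -0.0437 to 0.0171 in HEM), Egr1 (-0.0391 to 0.0271 at 3 months, -0.0533 to 0.0146 in HEM) and Fos (-0.86 to 0.13 in WT). Counts of called CpGs ran from 3 to 45 at 13 months, 0 to 57 at 3 months, 114 to 195 between ages in HEM, 63 to 181 in WT and 0 to 6 in the interaction, and those of gene regions from 0 to 6 in HEM, 0 to 1 in WT and 0 to 1 in the interaction, with 0 throughout between genotypes.

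Called CpGs at 13 months, 4 in the fit reported, were 11 with an offset of 0.1, 0 on the percent scale, and 2 each with strands averaged and with trend and robust variances. At 3 months, in place of 0, they were 63 with the offset of 0.1 and 8 with strands averaged. On the percent scale 20 were called between ages in HEM in place of 136, and 38 in WT in place of 81. The interaction, with 1, gave 8 with the offset of 0.1, and 0 with the covariate, the other mean filter, the percent scale and trend and robust variances. Gene regions called between ages were 4 in HEM without flanks in place of 0, and 0 in WT in place of 1 without flanks, with the covariate and on the percent scale. Mean levels of the genes moved by more than 1 SD in 35 of 84 recomputations with other flanks or averaged strands. Depth is unknown, so its part in the spread of a CpG could not be assessed.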
